A study of Mus musculus with 8 samples.

Results

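The Kruppel-like factors are a family of DNA-binding transcription factors, and 10 of their genes were followed here in the mouse hypothalamus after 2 hours of low oxygen: Klf2, Klf3, Klf4, Klf6, Klf7, Klf9, Klf10, Klf11, Klf13 and Klf15. They were taken by symbol from the deposited count table, which holds 55487 genes, 17 of them KLF genes, and all 10 had enough reads to be tested. The hypoxia group was 4 C57BL/6J mice that spent 2 hours in a chamber at 7% oxygen, with the rest of the gas nitrogen. The normoxia group was 4 mice of the same strain kept in normal conditions, labelled 21% oxygen for 2 hours. Age and sex are not given in the labels, no animal carried a stated allele or received a stated drug, and each library is 1 hypothalamus sample. The series concerns the function of the glucocorticoid receptor under hypoxia, and several of these genes are textbook targets of that receptor. Gene coordinates are those of GENCODE M21 on GRCm38 and cover the whole gene.

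Kruppel-like factors bind CACCC and GC-rich sequences in promoters through zinc fingers at the end of the protein, while the rest of the protein decides whether a target is switched on or off. Klf9, Klf13, Klf10 and Klf11 share a segment that recruits the Sin3 corepressor, Klf3 represses through CtBP, and Klf2, Klf4, Klf6 and Klf7 belong to the branch that mostly activates. Klf15 stands outside these branches. Klf9 and Klf15 are induced by glucocorticoids in many tissues, Klf9 also by thyroid hormone in the brain, and Klf2, Klf4, Klf6 and Klf10 are rapidly induced genes in many cell types. In retinal neurons Klf6 and Klf7 promote axon growth and Klf4 and Klf9 restrain it.

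Library totals ran from 16994473 to 21694383 counts. Values are CPM, the counts of a gene relative to the total of its library, with totals scaled by the TMM method, and the test is edgeR's quasi-likelihood F test with Benjamini-Hochberg adjustment over all 17047 genes tested. Hypothalamic marker genes were present in all libraries, with the 10 of them summing to 678 to 802 CPM in hypoxia and 371 to 814 CPM in normoxia. Normoxia replicate 2 stood apart. It had the lowest hypothalamic sum. Cortex and hippocampus markers summed to 22.6 to 102 CPM in hypoxia, and in normoxia to 434.8 CPM in replicate 2 and 34.3 to 86.2 CPM in the rest. The 5 pituitary markers, of which Lhb was at 0 in all libraries, summed to 40.7 CPM in hypoxia replicate 4 and 79.6 CPM in normoxia replicate 2, and to at most 7.15 CPM elsewhere. No marker list of endothelium, mural cells, astrocytes, oligodendrocytes, microglia or blood had a summed level that separated the groups. A sum can hide single markers: edgeR called 1 of the 4 mural cell markers higher in hypoxia and 1 of the 7 endothelial markers lower. In the lists of astrocytes, oligodendrocytes, microglia and blood, 0 markers were called. Both outcomes are given where leaving out normoxia replicate 2 or hypoxia replicate 4 changed a call. This covers the KLF genes, the genes named from related lists and the genes nearest in profile. No such outcomes are given for Slco1a4, Slc17a7, Sgk1, Fkbp5, Egr1 or Fos.

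Of the 10 KLF genes, Klf15 rose in hypoxia, Klf6 and Klf3 fell, and 7 did not pass the test. That is 3 of 10 called, where 2.15% of all genes tested were called, 0.915% higher and 1.23% lower. The 10 genes were chosen with earlier results of these data known, so this comparison is no test of the family. Klf5, Klf8, Klf12 and Klf16, the other KLF genes that could be tested, were not called. The same 3 genes were the ones whose hypoxia and normoxia libraries did not overlap, a pattern seen in 13.4% of all genes tested, 5.69% higher and 7.75% lower. The median log2 fold change of the 10 genes was 0.039, against -0.0085 for all genes tested, and 6 of the 10 were positive, against 48.2% of all genes. An unadjusted p under 0.05 was reached by 4 of the 10, the fourth being Klf9, and by 19.3% of all genes.

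**Figure D1:**
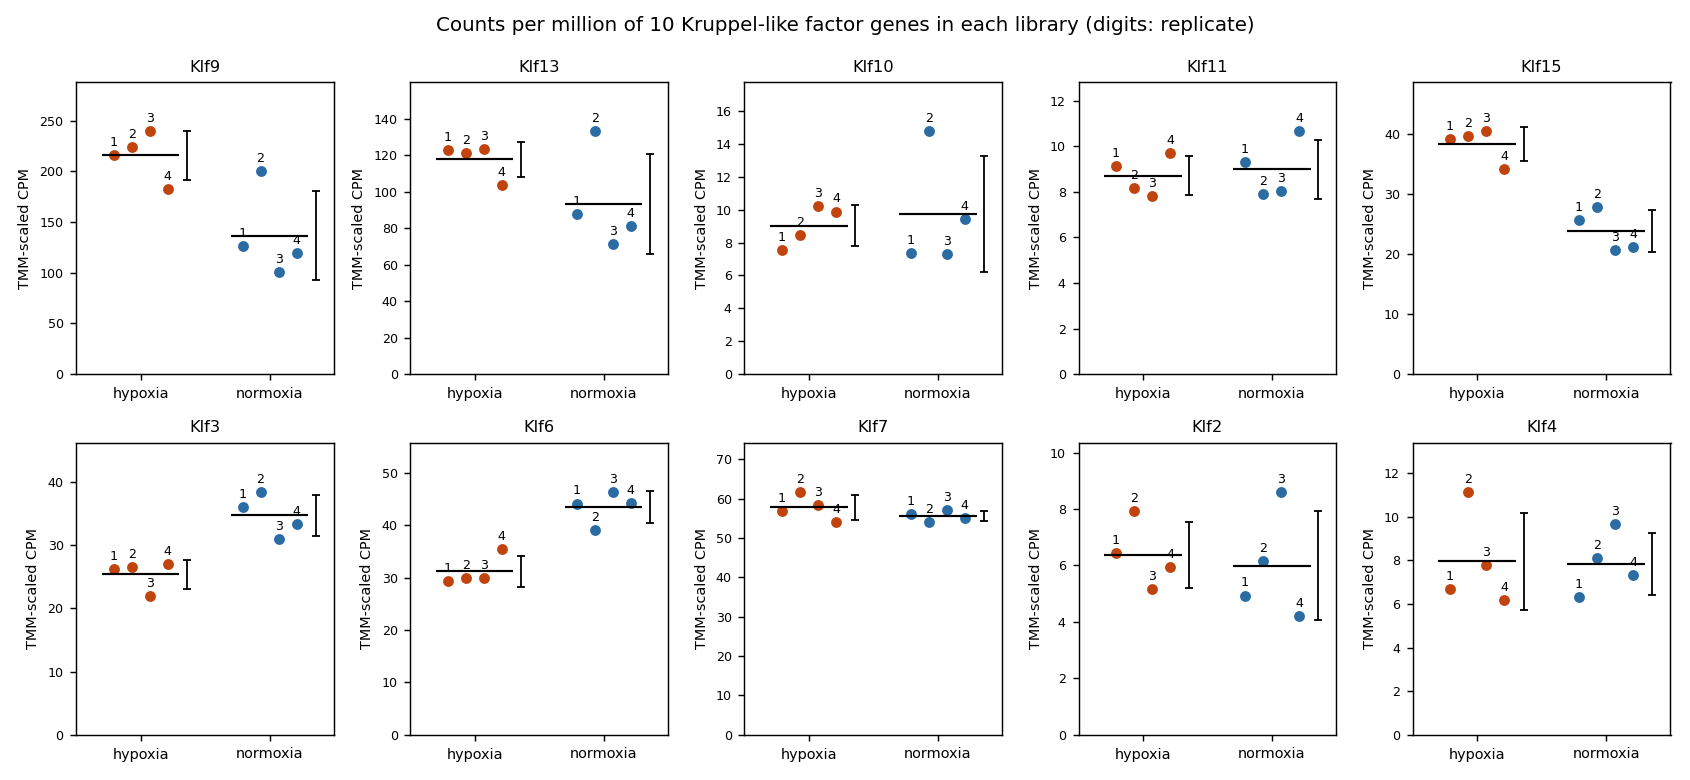
TMM-scaled CPM of each KLF gene in the 4 hypoxia and 4 normoxia libraries. Points are libraries with their replicate number, the horizontal line is the group mean, and the bar beside it is 1 SD. Klf15, Klf3 and Klf6 separate the groups, and normoxia replicate 2 lies above its group in Klf9, Klf13 and Klf10.

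Klf15 (chr6:90462576-90475238, plus strand), a regulator of amino acid and glucose metabolism in liver and muscle and a glucocorticoid target, had 39.1, 39.7, 40.5 and 34.2 CPM in hypoxia replicates 1 to 4, against 25.6, 27.9, 20.7 and 21.2 CPM in normoxia replicates 1 to 4. Every hypoxia library lay above every normoxia library, and the lowest hypoxia value was in replicate 4. Klf15 averaged 38.4 ± 2.86 CPM in the hypoxia libraries and 23.9 ± 3.50 CPM in the normoxia libraries (SD, n = 4 each). The level was 1.61-fold higher, with a fitted log2 fold change of 0.69, SE 0.11 and edgeR adjusted p = 0.0213. The adjusted p was 0.00344 without normoxia replicate 2 and 0.0108 without hypoxia replicate 4, but the call was lost when 1 of the remaining 6 libraries was dropped (adjusted p from 0.0601 to 0.0963), while the log2 fold change stayed between 0.63 and 0.77. In bulk tissue a change in the number of cells that express a gene cannot be told apart from a change of RNA per cell. Klf15 is expressed by astrocytes, among other cells, and the summed level of 5 astrocyte markers was 1450 to 1578 CPM in hypoxia and 1456 to 1591 CPM in normoxia, with 0 of the 5 called by edgeR. Much of that sum was Slc1a3, with means of 750 CPM in hypoxia and 719 CPM in normoxia. The single markers differed, with Gja1 lower and Aldh1l1 higher in hypoxia without overlap, while Aqp4, Gfap and Slc1a3 overlapped. The part of cell number in the Klf15 level was not tested.

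The 300 bases around the start site of Klf15 (RefSeq, GRCm38.p6) hold 3 copies of the E-box CACGTG, at -228, -172 and -3 from the start site, each of which contains the core ACGTG that hypoxia-inducible factors bind. The E-box is also the site of the clock factors and other basic helix-loop-helix proteins. Of 27025 promoters of the same length, 7.24% hold at least 1 E-box and 0.0888% (24 promoters) hold at least 3. The sequences of Klf15, of the 2 genes that fell and of Klf9 are shown to compare these letters, with ACGTG and GCGTG in capitals on either strand (CACGT and CACGC are their reverse complements).

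Klf15 (chr6:90462326-90462625, plus strand): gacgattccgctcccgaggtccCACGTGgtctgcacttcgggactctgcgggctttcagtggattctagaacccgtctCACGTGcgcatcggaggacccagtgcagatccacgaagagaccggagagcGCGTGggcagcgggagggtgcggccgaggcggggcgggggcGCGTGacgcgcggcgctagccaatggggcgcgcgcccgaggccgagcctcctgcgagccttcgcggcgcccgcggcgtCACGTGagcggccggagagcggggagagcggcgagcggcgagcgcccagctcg

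Klf6 (chr13:5861239-5861538, plus strand): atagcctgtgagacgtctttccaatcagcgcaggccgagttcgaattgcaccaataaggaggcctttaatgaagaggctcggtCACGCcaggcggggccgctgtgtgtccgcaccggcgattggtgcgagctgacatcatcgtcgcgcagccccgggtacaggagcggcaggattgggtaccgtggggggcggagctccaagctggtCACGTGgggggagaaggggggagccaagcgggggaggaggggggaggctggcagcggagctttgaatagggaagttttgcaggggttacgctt

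Klf3 (chr5:64803271-64803570, plus strand): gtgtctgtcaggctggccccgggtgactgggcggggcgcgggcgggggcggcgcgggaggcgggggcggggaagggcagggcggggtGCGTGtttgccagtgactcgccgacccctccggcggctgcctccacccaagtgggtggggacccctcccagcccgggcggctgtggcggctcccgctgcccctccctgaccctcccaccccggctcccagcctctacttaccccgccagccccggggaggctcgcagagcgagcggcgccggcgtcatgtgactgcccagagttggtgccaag

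Klf9 (chr19:23140976-23141275, plus strand): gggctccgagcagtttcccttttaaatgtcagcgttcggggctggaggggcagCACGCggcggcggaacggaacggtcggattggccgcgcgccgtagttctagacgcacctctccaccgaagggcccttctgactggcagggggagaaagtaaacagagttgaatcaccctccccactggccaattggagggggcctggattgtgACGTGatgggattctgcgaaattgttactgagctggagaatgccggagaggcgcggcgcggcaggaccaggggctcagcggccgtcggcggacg

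Promoters were matched for 9 of the 10 genes, all but Klf10. ACGTG or GCGTG, on either strand, was present in 8 of the 9, Klf2 being the exception, and in 43.8% of all promoters. The E-box was in 4 of the 9: beside Klf15, which rose, in Klf6 (at -43), which fell, and in Klf4 (at -182) and Klf11 (at -214), which were not called. These promoters were richer in G and C than most, at 58.3 to 77.7%, where the median of all promoters was 52.7%, and both cores contain CG. The short glucocorticoid receptor site TGTTCT and the receptor's palindromic element, both strands searched, were in 0 of the 9 windows, and in 19.0% and 0.463% of all promoters. The cAMP response element TGACGTCA and the serum response element were also in 0 of 9, and in 1.88% and 1.57% of all. The GC box GGGCGG was in 8 of 9 (35.9% of all) and CACCC, the letters that Kruppel-like factors themselves bind, in 6 of 9 (56.7% of all). A match in this window is a description of the sequence, and other windows were not searched.

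Klf6 (chr13:5861482-5870394, plus strand), an activator induced by injury in many tissues, fell. It had 29.4, 30, 29.9 and 35.5 CPM in hypoxia replicates 1 to 4, against 44.2, 39.0, 46.4 and 44.3 CPM in normoxia replicates 1 to 4. The groups did not overlap, and they came closest in hypoxia replicate 4 and normoxia replicate 2. Klf6 averaged 31.2 ± 2.89 CPM in the hypoxia libraries and 43.5 ± 3.13 CPM in the normoxia libraries (SD, n = 4 each). The fitted log2 fold change was -0.48, with SE 0.080 and edgeR adjusted p = 0.0283. Without normoxia replicate 2 the adjusted p was 0.00744 and without hypoxia replicate 4 it was 0.0069. When 1 of the remaining 6 was dropped it was 0.0710 to 0.120, with log2 fold changes over the 8 such fits of -0.55 to -0.44.

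Klf3 (chr5:64803388-64832901, plus strand), the CtBP-dependent repressor, fell by about the same amount. It had 26.2, 26.4, 21.98 and 26.9 CPM in hypoxia replicates 1 to 4, against 35.97, 38.4, 31.0 and 33.3 CPM in normoxia replicates 1 to 4. The groups did not overlap. Klf3 averaged 25.4 ± 2.29 CPM in the hypoxia libraries and 34.7 ± 3.22 CPM in the normoxia libraries (SD, n = 4 each). The fitted log2 fold change was -0.45, with SE 0.089 and edgeR adjusted p = 0.0416. The adjusted p was 0.0349 without normoxia replicate 2, and 0.0397 without hypoxia replicate 4. It was 0.0693 to 0.131 when 1 of the remaining 6 was dropped. Klf3 shares 404 of its 11243 exon bases with Gm20033 on the opposite strand, and the strand setting of the counting is not given in the sources used here. Gm20033 itself was at 1.30 to 1.74 CPM in hypoxia and 1.03 to 2.23 CPM in normoxia.

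Klf9 (chr19:23141226-23168134, plus strand) was the most abundant of the 10 genes and had a fold change close to that of Klf15, but it did not pass the test. It had 217, 224, 240 and 183 CPM in hypoxia replicates 1 to 4, against 127, 201, 100.4 and 119 CPM in normoxia replicates 1 to 4. Normoxia replicate 2 lay inside the hypoxia range, and the other 3 normoxia libraries lay below all hypoxia libraries. Klf9 averaged 216 ± 24.2 CPM in the hypoxia libraries and 137 ± 44.0 CPM in the normoxia libraries (SD, n = 4 each). The log2 fold change was 0.66 ± 0.19 (SE; 95% interval 0.23 to 1.09; adjusted p = 0.104). Without normoxia replicate 2 it was 0.91 and called (adjusted p = 0.00291). With any 1 other library left out it was 0.54 to 0.73 and not called (adjusted p from 0.0965 to 0.275). DESeq2 on all 8 libraries called it (adjusted p = 0.0116), and limma-voom did not (0.0788).

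Klf13 (chr7:63886351-63938915, minus strand), the closest relative of Klf9 in the Sin3-binding branch, showed a similar arrangement of libraries. It had 123, 121, 123 and 103.5 CPM in hypoxia replicates 1 to 4, against 87.5, 133, 71.6 and 81.0 CPM in normoxia replicates 1 to 4. Normoxia replicate 2 was the highest of all 8 libraries, and the other 3 normoxia libraries were the lowest. Klf13 averaged 118 ± 9.49 CPM in the hypoxia libraries and 93.3 ± 27.4 CPM in the normoxia libraries (SD, n = 4 each). The log2 fold change was 0.33 ± 0.17 (SE; 95% interval -0.048 to 0.72; adjusted p = 0.317). Without normoxia replicate 2 it was 0.56 and called (adjusted p = 0.00888), and with any other library left out it was 0.23 to 0.39 and not called. Klf13 overlaps Gm27252 and E030018B13Rik on the opposite strand but shares 0 exon bases with either.

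In normoxia replicate 2, Klf9 and Klf13 moved with other genes. The cortical transporter gene Slc17a7 was at 7.92 to 80.3 CPM in hypoxia, and in normoxia at 384 CPM in replicate 2 and 17.7 to 70.1 CPM in the rest. The glucocorticoid-induced gene Sgk1 was at 121 to 243 CPM in hypoxia, and in normoxia at 94.5 CPM in replicate 2 and 37.3 to 38.6 CPM in the rest. Fkbp5, another glucocorticoid target, was at 49.7 to 60.8 CPM in hypoxia, and in normoxia at 53.3 CPM in replicate 2 and 29.0 to 31.0 CPM in the rest. The part of tissue content or of glucocorticoid state in the Klf9 and Klf13 levels of this library was not tested. In hypoxia, replicate 4 was the library with the lowest Klf9, Klf13 and Klf15, and it also had the lowest Sgk1. Fkbp5 did not follow this order, with 53.5 CPM in hypoxia replicate 4 and its lowest hypoxia value, 49.7 CPM, in replicate 2.

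A ratio of 2 genes within a library does not depend on how libraries are scaled. The ratio of Klf9 to Klf13 was 1.76, 1.85, 1.95 and 1.77 in hypoxia replicates 1 to 4, against 1.45, 1.51, 1.40 and 1.47 in normoxia replicates 1 to 4. Here normoxia replicate 2 lay near the rest of its group and the groups did not overlap, so Klf9 stood higher relative to Klf13 in every hypoxia library. The ratio of Klf13 to Klf15 was 3.03 to 3.14 in hypoxia and 3.42 to 4.77 in normoxia. The ratio of Klf6 to Klf15 was 0.750, 0.756, 0.737 and 1.04 in hypoxia replicates 1 to 4, against 1.72, 1.40, 2.24 and 2.09 in normoxia replicates 1 to 4. Klf3 to Klf15 was 0.542 to 0.787 in hypoxia and 1.38 to 1.58 in normoxia, so the order of these 2 genes by count turned round between the groups. These pairs were chosen from the 45 possible ones after their values were seen, and they were not tested. Of the 45 pairs, 13 had ratios that did not overlap between the groups. All of them but Klf9 to Klf10 and Klf9 to Klf13 hold Klf3, Klf6 or Klf15, whose own levels already separated the groups. The share of such pairs among all genes tested was not computed, so this count is no result about the family.

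**Figure D2:**
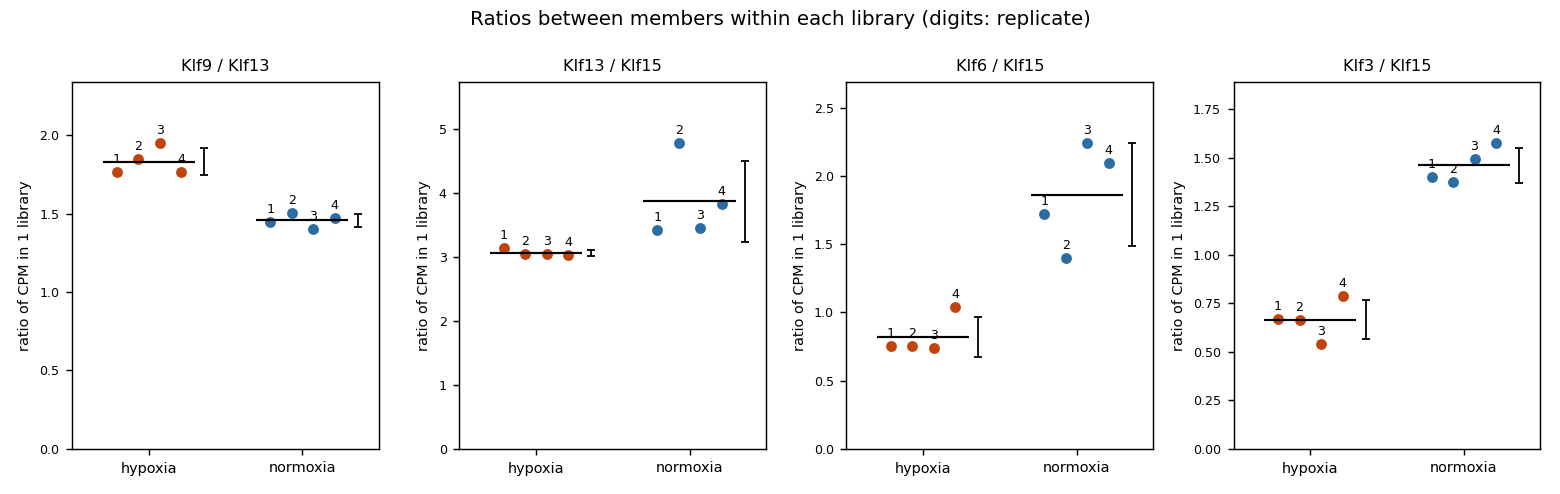
Ratio of the CPM of 2 KLF genes within each library, for the 4 hypoxia and 4 normoxia libraries. Points are libraries with their replicate number, lines are means and bars are 1 SD. The Klf9 to Klf13 ratio is at least 1.76 in hypoxia and at most 1.51 in normoxia.

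Klf10 and Klf11, the other Sin3-binding members, are induced by transforming growth factor beta in many cells, and neither passed the test. Klf10 (chr15:38291463-38300706, minus strand) had 7.54, 8.47, 10.2 and 9.88 CPM in hypoxia replicates 1 to 4, against 7.38, 14.8, 7.29 and 9.40 CPM in normoxia replicates 1 to 4. The highest of all 8 values was in normoxia replicate 2, and the other libraries overlapped. Its log2 fold change was -0.11 (95% interval -0.61 to 0.40; adjusted p = 0.835), and without that library the sign turned to 0.17 (adjusted p = 0.508). Of the activity-dependent genes Egr1 and Fos, Egr1 was at 60.8 to 79.8 CPM in hypoxia, and in normoxia at 162 CPM in replicate 2 and 39.0 to 67.7 CPM in the rest. Fos did not single out that library, with 13.9 to 33.4 CPM in hypoxia, and in normoxia 28.9 CPM in replicate 2 and 8.58 to 25.0 CPM in the rest. Klf11 (chr12:24651274-24662789, plus strand) had 7.83 to 9.68 CPM in hypoxia and 7.92 to 10.7 CPM in normoxia, overlapping throughout, with a log2 fold change of -0.049 (95% interval -0.33 to 0.23; adjusted p = 0.868).

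Of the activating branch, Klf7 (chr1:64029447-64122282, minus strand), which supports axon outgrowth in neurons, was the most even. It had 56.9, 61.8, 58.5 and 54.0 CPM in hypoxia replicates 1 to 4, against 56.1, 54.0, 57.1 and 55.2 CPM in normoxia replicates 1 to 4. Its log2 fold change was 0.056 (95% interval -0.059 to 0.17; adjusted p = 0.591), the narrowest interval among the 10 genes. Klf7 shares 3196 of its 8131 exon bases with Gm26649 on the opposite strand, so its level is uncertain if the counting ignored strand.

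Klf2 and Klf4, which blood flow induces in endothelium, were low and variable. Klf2 (chr8:72319033-72321656, plus strand) had 6.43, 7.94, 5.17 and 5.94 CPM in hypoxia replicates 1 to 4, against 4.94, 6.17, 8.61 and 4.22 CPM in normoxia replicates 1 to 4. Klf4 (chr4:55527143-55532466, minus strand) had 6.67, 11.1, 7.78 and 6.19 CPM in hypoxia replicates 1 to 4, against 6.30, 8.08, 9.65 and 7.31 CPM in normoxia replicates 1 to 4. The groups overlapped in both genes. The log2 fold changes were 0.096 for Klf2 (95% interval -0.41 to 0.60) and 0.021 for Klf4 (-0.43 to 0.47), with adjusted p of 0.855 and 0.964, and changes within those bounds are compatible with these values. Klf2 had 93 to 150 counts per library and Klf4 124 to 209. Summed endothelial markers were at 232 to 262 CPM in hypoxia and 246 to 294 CPM in normoxia, with 1 of 7, Slco1a4, called lower.

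**Figure D3:**
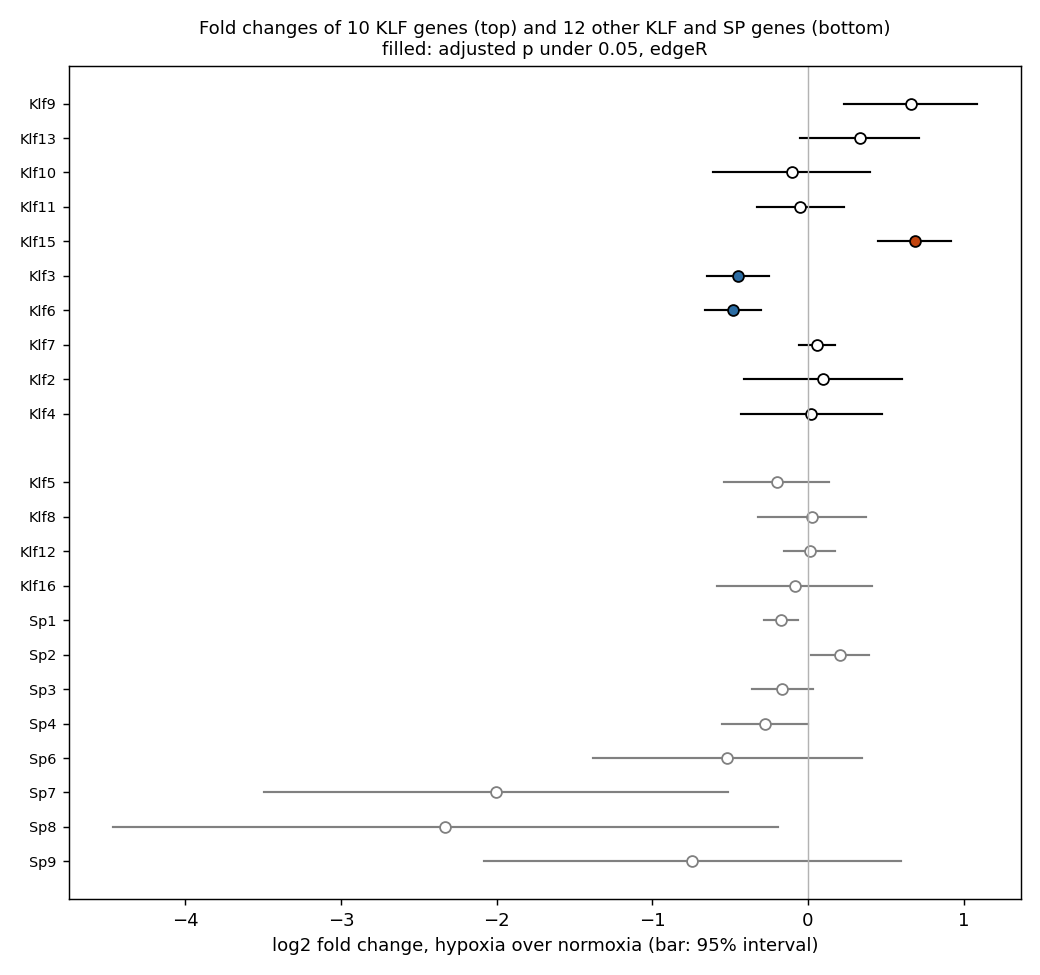
Log2 fold change, hypoxia over normoxia, of the 10 KLF genes (top) and of the 12 other KLF and SP genes that could be tested (bottom), with 95% intervals. Filled points passed edgeR's test at an adjusted p under 0.05: Klf15 at 0.69, Klf3 at -0.45 and Klf6 at -0.48.

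Per kilobase of exon, the normoxia levels fell into an upper and a lower set. Klf9 led with 44.8 ± 5.02 CPM per kilobase in hypoxia and 28.4 ± 9.15 in normoxia (n = 4 libraries each, ± SD). In normoxia it was followed by Klf13, Klf6, Klf15 and Klf7, with means from 12.4 to 6.84 CPM per kilobase. Klf2, Klf3, Klf4, Klf10 and Klf11 lay at 3.24 to 2.07. In normoxia the ranges of Klf13 and Klf6, of Klf6 and Klf15, and of all neighbours among the lowest 5 overlapped, while those of Klf9 and Klf13, Klf15 and Klf7, and Klf7 and Klf2 did not. In hypoxia Klf15 took the third place, at 13.8 ± 1.02 against 8.55 ± 1.25 in normoxia, and its range overlapped that of Klf13 and lay above those of Klf7 and Klf6. Klf6 was at 7.10 ± 0.658 in hypoxia, next to Klf7 at 7.11 ± 0.400, against 9.90 ± 0.714 and 6.84 ± 0.166 in normoxia. Exon lengths merge all annotated transcripts, so genes with long alternative exons, such as Klf3 with 11243 bases, are placed low on this scale.

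**Figure D4:**
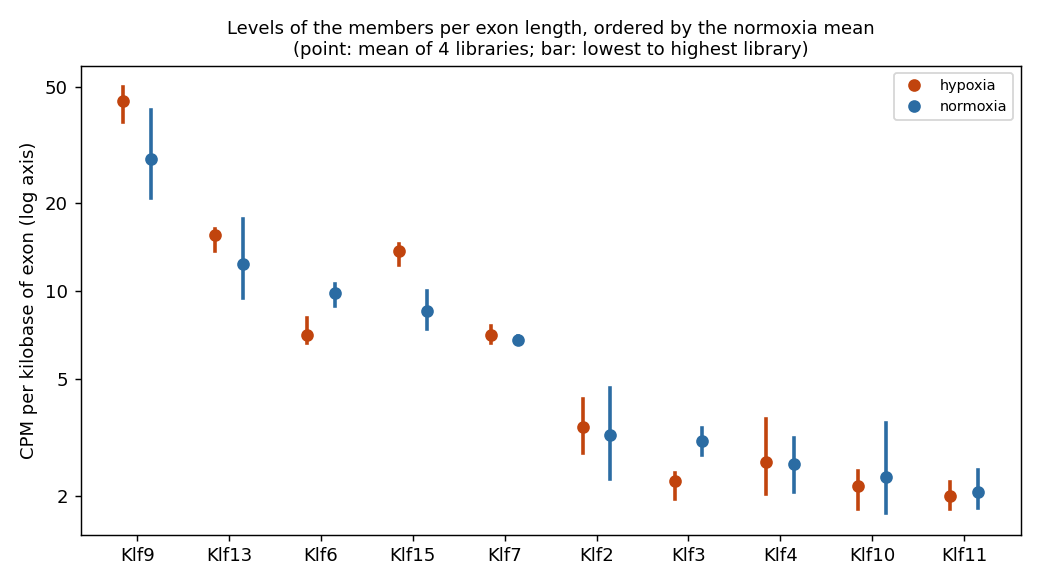
Level of each KLF gene per kilobase of exon in hypoxia and normoxia, on a log axis, ordered by the normoxia mean. Points are means of 4 libraries and bars run from the lowest to the highest library. Klf15 moves from the fourth place in normoxia to the third in hypoxia.

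Among the other 16 genes of the wider KLF and SP family, 12 could be tested and 0 were called by edgeR, DESeq2 or limma-voom, with 5 at an unadjusted p under 0.05, a mark reached by 19.3% of all genes. Their median log2 fold change was -0.19, and 3 of the 12 had a positive one, against 48.2% of all genes. Normoxia replicate 2 had by far the highest Sp7, Sp8, Sp9 and Klf16 of all 8 libraries. Without it the median was -0.12, 4 of the 12 were positive, and Sp7 alone was called, lower (log2 -0.75; edgeR adjusted p = 0.0345). Sp1, a ubiquitous activator that binds the GC box, had the smallest p. It was at 39.6 ± 0.924 CPM in hypoxia and 44.6 ± 1.79 CPM in normoxia (n = 4 libraries each, ± SD), with log2 fold change -0.17 and adjusted p = 0.0984, and its groups did not overlap. Klf12 and Klf8, which share the CtBP-binding motif of Klf3, had log2 fold changes of 0.011 and 0.026. Klf1, Klf14, Klf17 and Sp5 had too few reads to be tested, with at most 0.585 CPM in any library.

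Genes around the Kruppel-like factors were counted from lists of partners, upstream routes and known targets. Beside these counts, 2.15% of all genes tested were called by edgeR, and 19.3% had an unadjusted p under 0.05. Of 11 corepressors and coactivators, 0 were called by edgeR or limma-voom and 1 by DESeq2, with 2 at an unadjusted p under 0.05 and a median log2 fold change of -0.086. The member with the smallest p was Sin3b, a scaffold of the Sin3 complex, at 96.8 ± 4.83 CPM in hypoxia and 112 ± 3.89 CPM in normoxia (log2 -0.21; adjusted p = 0.0610; called by DESeq2). Without hypoxia replicate 4 it was called by edgeR (log2 -0.24; adjusted p = 0.0450). Of 9 genes of the MEK5-ERK5-MEF2 route, which drives Klf2 and Klf4 in endothelium, 0 were called by edgeR or limma-voom and 1 by DESeq2, with 1 at an unadjusted p under 0.05. That gene was Hdac5, a histone deacetylase that binds MEF2 (log2 -0.21; adjusted p = 0.0828 by edgeR). Of 9 genes of the transforming growth factor beta route, 0 were called by any of the 3 tools, with 1, the ligand gene Tgfb3, at an unadjusted p under 0.05 (log2 -0.33; adjusted p = 0.239), which shares 257 exon bases with Gm48008 on the opposite strand. Without normoxia replicate 2, Tgfb3 was at -0.18 (adjusted p = 0.323), and Smad3, which carries the signal of the receptors, was called higher by edgeR (log2 0.41; adjusted p = 0.0474, against 0.24 and 0.426 with all libraries).

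Of 8 genes that KLF2 and KLF4 control in endothelium, 1 rose, where 0.915% of all genes tested were called higher. Edn1, which encodes the vasoconstrictor endothelin-1 and is repressed by KLF2 there, had 5.32, 7.09, 5.12 and 3.34 CPM in hypoxia replicates 1 to 4, against 2.07, 2.93, 2.30 and 2.18 CPM in normoxia replicates 1 to 4. The groups did not overlap, and the log2 fold change was 1.14 ± 0.23 (SE; adjusted p = 0.0424). The call was lost with limma-voom, which called Cdkn1a instead, and in 6 of the 8 fits that dropped 1 library. DESeq2 also called Edn1, and 6 of the 8 genes had an unadjusted p under 0.05 by edgeR, against 19.3% of all genes. Without normoxia replicate 2, edgeR called Edn1, the cell cycle inhibitor gene Cdkn1a (log2 2.23; adjusted p = 0.000856) and, lower, the receptor gene Tek (log2 -0.36; adjusted p = 0.0345). Edn1 shares 35 exon bases with Gm47118 on the opposite strand. Of 6 tested metabolic targets of KLF15 known from liver and muscle, 0 were called by edgeR or limma-voom and 1 by DESeq2, with 3 at an unadjusted p under 0.05. The 1 was Bcat2, which starts the breakdown of branched-chain amino acids and is activated by KLF15 in muscle. It was at 8.96 ± 0.935 CPM in hypoxia and 12.2 ± 1.85 CPM in normoxia (log2 -0.44; adjusted p = 0.0984 by edgeR), and it shares 622 exon bases with a gene on the opposite strand. Prodh, which starts the breakdown of proline, was at 29.5 ± 2.72 CPM in hypoxia and 25.4 ± 2.40 CPM in normoxia, with groups that did not overlap (log2 0.21; adjusted p = 0.234). Without normoxia replicate 2, Gpt2, an alanine aminotransferase gene, was called higher by edgeR (log2 0.20; adjusted p = 0.0422, against 0.035 and 0.904 with all libraries).

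Of 6 thyroid hormone receptors and responsive genes, a class to which Klf9 belongs, 1 rose, where 0.915% of all genes tested were called higher. Hr, a corepressor that thyroid hormone induces in the brain, had 78.6, 69.8, 84.1 and 67.5 CPM in hypoxia replicates 1 to 4, against 55.0, 47.7, 53.2 and 45.5 CPM in normoxia replicates 1 to 4. The groups did not overlap, with a log2 fold change of 0.58 ± 0.09 (SE; adjusted p = 0.0210), and Hr was called in 3 of the 8 fits that left out 1 library. The receptor genes Thra and Thrb had log2 fold changes of 0.068 and 0.078 and were not called.

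For each KLF gene that was called, the 3 genes with the most similar profile over the 8 libraries were taken from 12292 genes with at least 5 CPM, by the root-mean-square distance between log2 CPM values centred on each gene's mean. For Klf15 they were Slc16a6, a monocarboxylate transporter family gene (distance 0.0718; log2 fold change 0.73), Slc2a1, the glucose transporter of the blood-brain barrier (0.0796; 0.70), and Kdm3a, a histone demethylase (0.110; 0.68), and all 3 were called higher. For Klf6 they were Ing5 (0.0406; -0.44), Zfp14 (0.0492; -0.44) and Snap23 (0.0504; -0.46), all called lower. For Klf3 they were Nab1 (0.0661; -0.39), Osgin2 (0.0685; -0.34) and Hspbap1 (0.0691; -0.50), of which 0 were called by edgeR (adjusted p from 0.0719 to 0.0860). On the opposite strand, Slc16a6 shares 1052 exon bases with Amz2 and Hspbap1 shares 430 with Gm26838. These genes were picked for their likeness, so their fold changes are not separate evidence.

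**Figure D5:**
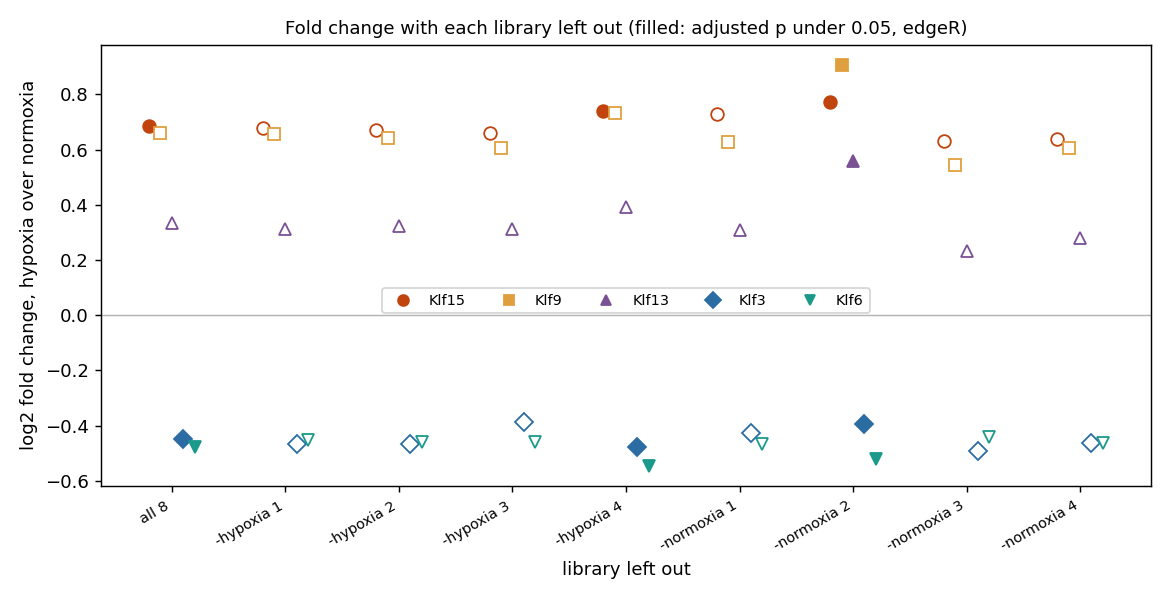
Log2 fold change, hypoxia over normoxia, of 5 KLF genes with all 8 libraries and with each library left out. Filled symbols have an adjusted p under 0.05 by edgeR. The fold changes of Klf15, Klf3 and Klf6 move little while their calls come and go, and Klf9 and Klf13 are called only in the fit without normoxia replicate 2, at 0.91 and 0.56.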

How the data were processed

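Polyadenylated RNA of 8 mouse hypothalami was sequenced with a stranded kit, per the labels' protocols. The authors deposited unnormalized counts of reads for each Ensembl gene, with libraries as columns, matched to samples by the short names in their descriptions. Per the submitters' processing notes, the tools were featureCounts, SAMtools, HISAT2 2.0.4, HISAT, Trimmomatic and DESeq2, and the build was mm10. The annotation and strand option of the counting, and its treatment of multi-mapping reads, were not given in these sources. Symbols (55227 of 55487 IDs), coordinates and exon lengths come from GENCODE M21 on GRCm38, the assembly of mm10, and promoters from RefSeq on GRCm38.p6 (250 bases before to 50 after the start).

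The test was that of edgeR 4.0.16 (R 4.3.3), run after filterByExpr (minimum count 10, minimum total 15; 17047 genes) and TMM scaling. The quasi-likelihood F test had no covariate beside group and was tested on simulated data. A gene was called at an adjusted p under 0.05, with Benjamini-Hochberg adjustment across the whole table. Intervals are 95% intervals of the fitted log2 fold change. The design text calls the libraries biological replicates. The p-values set the difference between groups against the spread of libraries within groups, estimated with information shared across genes. Pairs of libraries within a group differed by 4.64 to 37.7 in chi-square per gene, so none was counted as a repeat. Alternatives were DESeq2 1.42.0, limma-voom (limma 3.58.1), other scalings, filters, thresholds and test forms, a replicate block, and leaving out libraries.

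The KLF genes, the gene lists and the alternatives were chosen with earlier results of these data known. Beside the KLF genes, the text names the called members of each list, or the one with the smallest p, and the 3 nearest profiles of each called KLF gene. Genes named outside this rule, such as Klf8, Klf12, Prodh, Smad3, Tek, Cdkn1a, Gpt2, Thra and Thrb, were chosen after their values were seen. A gene of the endothelial list is counted but not reported here by name.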

Additional observations from a re-analysis of the deposited data

Results flagged for a closer look

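In 20 sets of 4 values (10 genes in each of 2 groups), 3 had a library far from the rest of its group, all in hypoxia. With 4 values, the gap to the nearest library was over 0.829 of the whole range, which chance gives in about 1 of 20 sets. Klf6 was at 35.5 CPM in hypoxia replicate 4, against 29.4 to 30 CPM in the other hypoxia libraries. Klf13 was at 103.5 CPM in hypoxia replicate 4, against 121 to 123 CPM. Both values lie on the side of the normoxia group. Klf3 was at 21.98 CPM in hypoxia replicate 3, against 26.2 to 26.9 CPM, on the side away from normoxia, and without that library its log2 fold change was -0.39 (adjusted p = 0.131).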

How the results depend on the processing

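Of 20 alternatives, Klf15, Klf6 and Klf3 were called in 13 each, always in the same direction. Among these is the looser threshold of an adjusted p under 0.1, which keeps every call of the main fit by definition. The calls were lost in 6 of the 8 fits that dropped 1 library (all but those dropping hypoxia replicate 4 or normoxia replicate 2), and with the replicate number as a block. The number of KLF genes called was 0 to 5 with 1 library left out and 5 without normoxia replicate 2 and hypoxia replicate 4 together. For all genes it was 26 to 693 and 1195, for the other KLF and SP genes 0 to 1 and 2, and for the related lists, 2 in all libraries, 0 to 6 and 6. DESeq2 called 958 genes, and 6 in the related lists. An adjusted p under 0.1 gave 1058 genes, 1 other KLF or SP gene and 6 in the related lists. Library size alone gave 4 in the related lists, and raised the share of decreases among all calls to 70.1% (342 of 488), against 57.4% (210 of 366). That share was 4.76% with the replicate block. With 1 library left out it was 65.9% (hypoxia replicate 4), 51.3% (normoxia replicate 2) and 5.88 to 16.0% (each of the other 6). The replicate block gave 0 KLF genes, 21 genes in all and 1 in the related lists. Deviations of same-numbered libraries correlated at -0.105 to 0.043. Such low values show no sign of pairing by number, but they cannot exclude it.

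Signs turned only among genes that were not called. With 1 library left out, log2 fold changes ran from -0.035 to 0.33 for Klf2, -0.18 to 0.14 for Klf4, -0.21 to 0.17 for Klf10 and -0.10 to 0.052 for Klf11. Klf4 was at -0.0062 with library size alone, and Klf10 at 0.12 without normoxia replicate 2 and hypoxia replicate 4 together. The cause was not tested. Without division by exon length, 2 of the 10 genes kept their place in the normoxia order. Precision is limited by 4 libraries per group and, for Klf2, Klf4, Klf10 and Klf11, by counts of 93 to 278 per library.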

Other observations

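Several other KLF and SP genes were high in normoxia replicate 2 alone, and were picked after their values were seen. Sp8, a factor of olfactory and striatal interneurons, was at 1.93 to 2.72 CPM in hypoxia, and in normoxia at 36.7 CPM in replicate 2 and 1.98 to 2.99 CPM in the rest. Its relative Sp9 was at 4.69 to 8.41 CPM in hypoxia, and in normoxia at 28.7 CPM in replicate 2 and 3.71 to 7.04 CPM in the rest. Sp7, known from bone and from olfactory and cortical neurons, was at 1.89 to 2.35 CPM in hypoxia, and in normoxia at 23.1 CPM in replicate 2 and 3.10 to 3.86 CPM in the rest. Klf16 was at 26.2 to 29.8 CPM in hypoxia, and in normoxia at 46.6 CPM in replicate 2 and 20.4 to 26.5 CPM in the rest. Sp7 was called lower in hypoxia without that library, where the groups did not overlap. The part of the dissected tissue in these values was not tested.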
